A study of Mus musculus with 12 samples.

Results

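Hoxa2, Hoxa3, Hoxa4, Hoxa5, Hoxa6 and Hoxa7 are the Hoxa genes that lie on the anterior side of the mutated genes Hoxa9, Hoxa10 and Hoxa11 on mouse chromosome 6. They were taken by gene symbol, as 6 of the 31618 genes listed for the female libraries and 6 of the 31669 listed for the male libraries, and each has a value in all 12 libraries. The series measured gene expression by RNA sequencing in the reproductive tract of mice of strain background CD1/129, aged 3 to 7 months, to characterise the changes that follow mutation of these Hoxa genes and of Hoxd9, Hoxd10 and Hoxd11. Each library was made from RNA pooled from 3 animals, and females were taken in diestrus, one stage of the oestrous cycle. Uterus and vas deferens were sampled in WT, in Hoxa9,10,11-/- (called Hoxa-null below), in Hoxd9,10,11-/- (Hoxd-null), in Hoxa9,10,11-/-d9,10,11+/- (compound Hoxa-null, with 2 mutant Hoxa copies and 1 mutant Hoxd copy) and in Hoxa9,10,11+/-d9,10,11-/- (compound Hoxd-null, with 1 mutant Hoxa copy and 2 mutant Hoxd copies). Where 4 values are given for the mutants, they follow the order Hoxa-null, Hoxd-null, compound Hoxa-null, compound Hoxd-null, and single stands for a genotype with 1 cluster mutated. WT oviduct and WT caudal epididymis (its tail end, continuous with the vas deferens) completed the 6 female and 6 male libraries. What kind of mutant alleles these were is not stated in the labels. Because each tissue and genotype has 1 library, differences have no replicate check, no test between groups was possible, and intervals given with read numbers cover counting error only.

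Hox genes encode homeodomain transcription factors and stand in clusters in which the order of the genes matches the order of their expression domains along the body axis, anterior genes first. In the adult tract the posterior genes Hoxa9, Hoxa10, Hoxa11 and Hoxa13 are known for successive domains from oviduct through uterus and cervix to vagina, and from epididymis to vas deferens in the male. The anterior genes are best known from other places: Hoxa2 from the hindbrain and the second pharyngeal arch, Hoxa3 from the pharyngeal organs such as thymus and parathyroid, Hoxa4 and Hoxa5 from the neck vertebrae and, for Hoxa5, the lung, and Hoxa6 and Hoxa7 from the trunk vertebrae. Neighbouring genes of a cluster share enhancers and chromatin domains, and retinoic acid, Cdx factors, Polycomb and Trithorax proteins are textbook regulators of the anterior genes.

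The stretches just upstream of 3 members are shown because these genes mark the extremes of the results: Hoxa2 had the smallest difference between WT and Hoxa-null uterus, Hoxa6 the largest, and Hoxa7 is the member nearest to the mutated genes. Each is the 250 bases before the annotated start, written 5′ to 3′ on the minus strand, on which all members lie, from RefSeq on build GRCm38.p6, at chr6:52164832-52165081 for Hoxa2, chr6:52208673-52208922 for Hoxa6 and chr6:52218574-52218823 for Hoxa7. Of the 6 members 5 matched an entry of that table, and Hoxa4 did not. Capitals mark matches, on either strand, to TTTATG (bound by Cdx factors), TGATNNAT (bound by Hox with Pbx) and TGACAG (bound by Meis and Pknox).
Hoxa2: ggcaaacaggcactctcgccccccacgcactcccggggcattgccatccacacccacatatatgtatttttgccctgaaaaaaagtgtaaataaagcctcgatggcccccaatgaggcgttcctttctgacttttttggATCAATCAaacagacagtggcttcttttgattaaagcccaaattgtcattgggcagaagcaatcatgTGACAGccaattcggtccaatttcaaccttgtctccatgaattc
Hoxa6: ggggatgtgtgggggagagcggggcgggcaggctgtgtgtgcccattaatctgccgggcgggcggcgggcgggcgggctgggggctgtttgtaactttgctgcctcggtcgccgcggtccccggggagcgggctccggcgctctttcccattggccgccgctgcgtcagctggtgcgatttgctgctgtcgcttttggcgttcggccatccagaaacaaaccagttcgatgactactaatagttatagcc
Hoxa7: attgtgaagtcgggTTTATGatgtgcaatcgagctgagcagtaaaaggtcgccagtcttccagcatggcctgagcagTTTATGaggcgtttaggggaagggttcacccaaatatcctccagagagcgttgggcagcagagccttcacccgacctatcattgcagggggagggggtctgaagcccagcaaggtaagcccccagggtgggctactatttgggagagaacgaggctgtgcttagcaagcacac
The Hoxa2 stretch holds 1 TGATNNAT match, written ATCAATCA on the printed strand, and 1 TGACAG match. The Hoxa7 stretch holds 2 TTTATG matches, and the Hoxa6 stretch holds none of the 3 motifs. Among 32841 upstream stretches of the same length, 10.8% hold TTTATG, 7.69% TGATNNAT and 15.9% TGACAG, and the median share of G and C is 52.4%, against 46.4% for Hoxa2, 65.2% for Hoxa6 and 54.8% for Hoxa7. A match of letters describes the sequence and is not a measured binding site.

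The deposited values are log2 values centred so that the 6 libraries of a sex have a median of 0 for every gene, so levels cannot be compared between the sexes or between genes, and every value below is a log2 difference from WT in the same tissue unless another unit is named. The worth of 1 read, recovered from the spacing of low values, spanned 1.34-fold among female and 1.92-fold among male libraries, and the files give no total number of reads. Genes were taken as measured if at least 1 library reached 20 normalised reads, or if their level could not be read back. Normalised reads are reads multiplied by the factor of the library, and the highest possible reading was used where several remained. In all, 16787 female and 16821 male genes were measured. The level could not be read back for 14108 and 13492 of them, so for these genes passing does not show a high level. Hoxa3 in both sets and Hoxa5 in the female set were among them. All 10 simple epithelium, 10 smooth muscle and 10 stromal fibroblast markers were measured in both sets. All 6 members were measured in the female set. In the male set 5 were, Hoxa6 stayed below the minimum, and Hoxa2 passed it through the compound Hoxa-null library alone. Hoxa4 and Hoxa7 passed in the male set by the highest but not by the lowest reading of their reads. Lane 1 of a run held WT uterus, Hoxa-null uterus and WT vas deferens, lane 2 of that run held the other 3 uteri and all mutant vasa deferentia but the compound Hoxd-null, and a separate run held compound Hoxd-null vas deferens, epididymis and oviduct. Of the differences from WT, only that of the Hoxa-null uterus lay within a single lane. In all others, lane or run cannot be told apart from genotype or segment. The mutated genes were checked first. In the single and compound Hoxa-null genotypes Hoxa11 was at -2.74 and -3.11 in uterus and -2.30 and -3.21 in vas deferens. Hoxa9 in the same libraries was at -0.34 and 0.27 (uterus) and 0.60 and 0.32 (vas deferens). In both Hoxd-null genotypes, single then compound, Hoxd11 was at -0.60 and -1.58 (uterus) and -2.47 and -1.18 (vas deferens). Since mutant transcripts can be counted, these values do not test the labels.

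In the uterus the anterior Hoxa genes were higher in every library with a mutant Hoxa copy than in WT. Of the 6 members 5 were at least 2-fold higher in the Hoxa-null uterus, where 5.99% of all measured genes were, 6 in compound Hoxa-null uterus (8.61%), 6 in compound Hoxd-null uterus (7.99%) and 0 in the Hoxd-null uterus (6.31%). The members' medians were 1.91, 2.35, 1.24 and 0.63 in the order of that sentence, beside medians over all measured genes between -0.002 and 0.003. None of the 6 was at least 2-fold lower. The 5th percentiles of all measured genes were -1.339, -1.255, -1.201 and -1.113 in the same order, so at least 5% of them were 2-fold lower in each library. The count of 6 in the compound Hoxd-null uterus rests on the WT library and lies near the threshold. It was 3 when libraries were scaled by housekeeping genes, for which the share of all genes was not computed. It was 0 (6.66% of all genes) against the mean of the 3 uteri with an intact Hoxd copy, 2 of which are the Hoxa-null libraries. Against that mean all 6 members were lower in the Hoxd-null uterus, at -0.20 to -2.67, 5 of them with a changed sign. Against the mean of the 3 uteri with an intact Hoxa copy the Hoxa-null uterus had 4 (5.1% of all genes) and the compound Hoxa-null uterus 6 (7.15%).

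**Figure D1:**
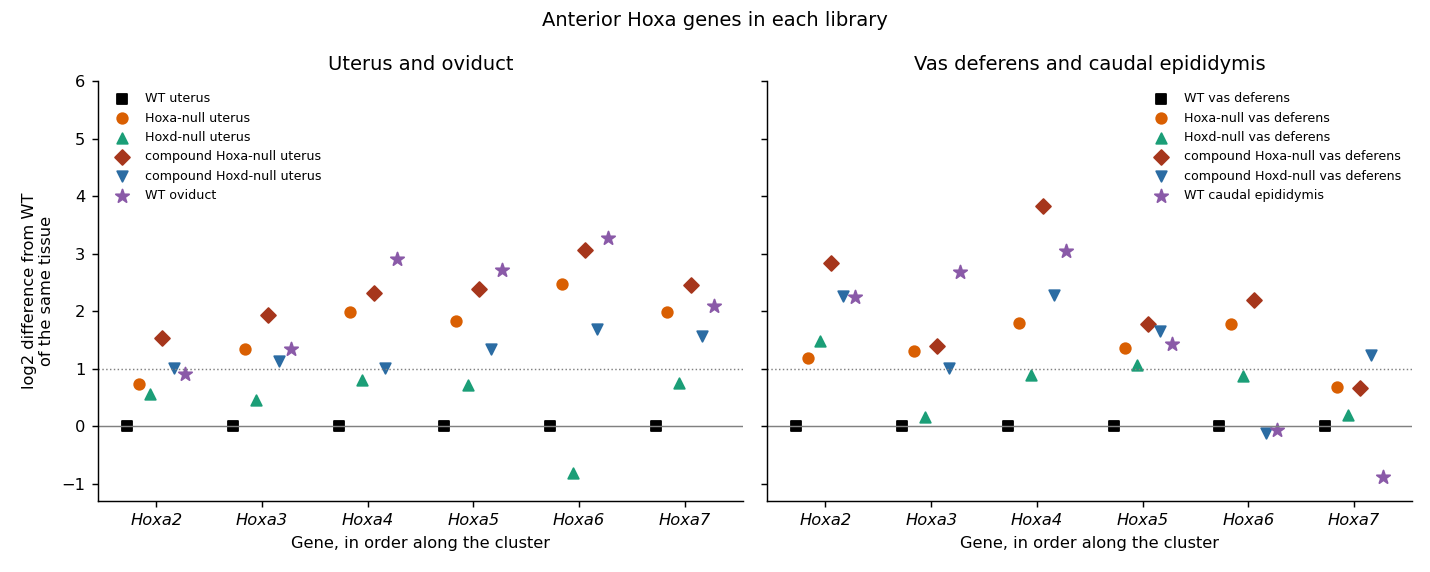
Each point is 1 pooled library, and the vertical axis is the log2 difference of the gene from WT in the same tissue (WT at 0, dotted line at 2-fold). In the left panel the compound Hoxa-null uterus is the highest of the 5 uteri for each gene, and in the right panel the caudal epididymis is above the WT vas deferens for Hoxa2 to Hoxa5 and below it for Hoxa7.

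Hoxa2, a regulator of hindbrain and pharyngeal arch identity, had 23 reads in the WT uterus, 44.4 in Hoxa-null, 31 in Hoxd-null, 72.8 in compound Hoxa-null and 55.7 in compound Hoxd-null uterus and 53 in the oviduct, where fractions of a read are as recovered from the deposited values. After scaling, the 5 libraries other than WT were, in that order, at 0.74, 0.56, 1.53, 1.02 and 0.91. In the compound Hoxa-null library the ratio to WT was 2.89, with a 95% interval from counting error of 1.79 to 4.85, and in the Hoxa-null library it was 1.67, with an interval of 0.975 to 2.86 that includes 1. Hoxa2, whose upstream stretch is shown above, was the member with the smallest difference in the Hoxa-null uterus.

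Hoxa3, a regulator of thymus and parathyroid formation, was at 1.33 in Hoxa-null, 0.46 in Hoxd-null, 1.93 in compound Hoxa-null and 1.13 in compound Hoxd-null uterus. Hoxa5, which acts in lung and neck skeleton, was at 1.83, 0.71, 2.39 and 1.35 in the same order. The level of neither gene could be read back in this set, so no counting interval is given. Both genes had WT as the lowest and the compound Hoxa-null as the highest uterus.

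Hoxa4 had 5 reads in the WT uterus, 23 in Hoxa-null, 8 in Hoxd-null, 27.2 in compound Hoxa-null, 12 in compound Hoxd-null uterus and 46.1 in the oviduct. Its ratio to WT was 3.97 (1.48 to 13.4) in the Hoxa-null and 4.97 (1.87 to 16.4) in the compound Hoxa-null library. In the single and compound Hoxd-null uterus it was 1.75 (0.504 to 6.79) and 2.0 (0.656 to 7.25), so at this depth neither could be told from WT by counting error alone.

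Hoxa6, a trunk-patterning gene, had the widest range over the 5 uteri, 3.89 on the log2 scale. It had 3.86 reads in WT, 24.7 in Hoxa-null, 2 in Hoxd-null, 35.5 in compound Hoxa-null and 14.9 in compound Hoxd-null uterus and 45.7 in the oviduct. That put the single and compound Hoxa-null uterus at 2.46 and 3.07, the compound Hoxd-null at 1.69 and the Hoxd-null at -0.82. It was the only member for which the Hoxd-null rather than the WT uterus was lowest. The ratio of the Hoxd-null to the WT uterus was 0.565, with an interval of 0.0494 to 3.81 that spans 1, whereas the ratio of the compound Hoxa-null to the WT uterus was 8.39 (2.86 to 31.0). For the compound Hoxd-null uterus it was 3.22, with an interval of 0.996 to 12.9 that also includes 1.

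Hoxa7, the member nearest to the mutated block and also shown above, was read with more depth than Hoxa4 or Hoxa6. It had 14.9 reads in WT, 68.3 in Hoxa-null, 23 in Hoxd-null, 89.4 in compound Hoxa-null and 52.9 in compound Hoxd-null uterus and 77.7 in the oviduct. The ratios to WT were 3.96 (2.21 to 7.36), 1.69 (0.837 to 3.45), 5.48 (3.12 to 10.1) and 2.96 (1.64 to 5.63) in the 4 mutants. The intervals of the 3 libraries with a mutant Hoxa copy did not include 1, and that of the Hoxd-null uterus did.

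**Figure D2:**
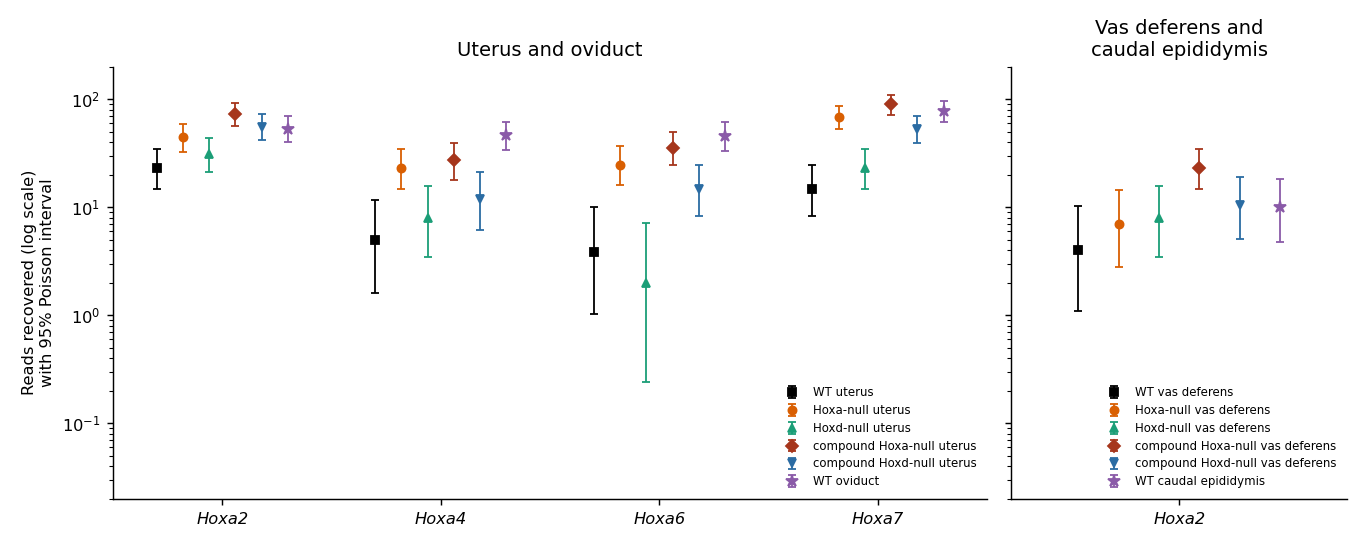
Points are the reads recovered for 1 gene in 1 library on a log axis, before scaling between libraries, and bars are exact 95% Poisson intervals for counting error. Members are shown whose reads had a single reading, and the WT uterus is at 5 reads for Hoxa4 and at 14.9 for Hoxa7, below both Hoxa-null uteri for both genes.

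The uteri followed a common order for most members. The compound Hoxa-null uterus was the highest of the 5 uteri for 6 of 6 members, as it was for 24.5% of all measured genes, and WT was the lowest for 5 of 6, as for 16.6% of all genes. The falling order compound Hoxa-null, Hoxa-null, compound Hoxd-null, Hoxd-null, WT held for Hoxa3, Hoxa4, Hoxa5 and Hoxa7, 4 of the 6 members, and for 1.38% of all measured genes. This order was picked after the values were seen. Both Hoxa-null libraries lay above all 3 other uteri for 5 of 6 members, Hoxa2 excepted (14.7% of all genes), but by less than 2-fold each time: the count at 2-fold was 0 of 6 members (0.995% of all genes). The gap between the lower Hoxa-null library and the highest other uterus was 0.99 for Hoxa4, 0.78 for Hoxa6, 0.49 for Hoxa5, 0.42 for Hoxa7, 0.20 for Hoxa3 and -0.28 for Hoxa2. Without the compound Hoxd-null uterus 4 members passed 2-fold (1.79% of all genes), and without the Hoxa-null uterus 3 did (3.43%). Among lane 2 libraries, the compound Hoxa-null uterus was at least 2-fold above both Hoxd-null libraries for 3 members (5.23% of all genes), and within lane 1 the Hoxa-null uterus was so above WT for 5 (5.99%).

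The compound genotypes were compared with the single mutants. The compound Hoxa-null uterus was higher than the Hoxa-null uterus for all 6 members, by 0.33 to 0.80 with a median of 0.58, and 0 of 6 reached 2-fold (6.76% of all genes). The ratio was 1.73 (1.19 to 2.62) for Hoxa2, 1.25 (0.686 to 2.27) for Hoxa4, 1.52 (0.863 to 2.58) for Hoxa6 and 1.39 (1.0 to 1.93) for Hoxa7. These 2 libraries came from different lanes, so lane and genotype cannot be told apart. The compound Hoxd-null uterus, in the same lane as the Hoxd-null, was higher than it for all 6 members with a median of 0.65. Hoxa6 alone passed 2-fold, 1 of 6 members (5.37% of all genes), at a ratio of 5.69 that rests on 2 reads in the Hoxd-null uterus and has an interval of 1.33 to 51.6.

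**Figure D3:**
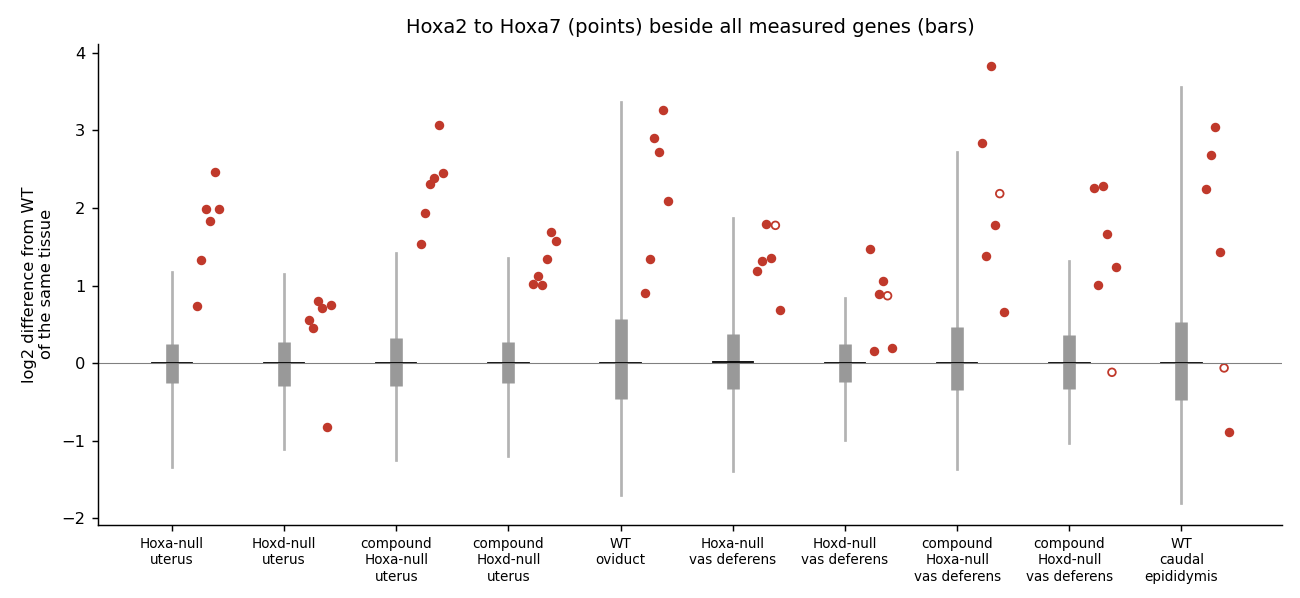
Red points are the 6 genes Hoxa2 to Hoxa7 in cluster order from left to right, with Hoxa6 open where it was below the minimum level. Grey bars span the middle 50% of all measured genes in the same comparison, thin lines the 5th to 95th percentile, and black ticks the median. All 6 points lie above the thin line in the compound Hoxa-null uterus, where the 95th percentile was 1.42, and inside it in the oviduct.

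The oviduct, the segment that adjoins the uterus, had more of the anterior Hoxa transcripts than the WT uterus. Of the 6 members 5 were at least 2-fold higher in the oviduct (16.5% of all genes) and 0 at least 2-fold lower (11.8%). Hoxa6 was at 3.27, Hoxa4 at 2.91, Hoxa5 at 2.72, Hoxa7 at 2.09, Hoxa3 at 1.34 and Hoxa2 at 0.91. The oviduct was above all 5 uteri for Hoxa4, Hoxa5 and Hoxa6 and below the compound Hoxa-null uterus for Hoxa2, Hoxa3 and Hoxa7. The differences of the oviduct and of the mutants were all taken from the same WT uterus, so they share that library and their likeness is not given as a result. The ratio of the oviduct to the WT uterus was 9.61 (3.42 to 35.8) for Hoxa6, 7.49 (2.99 to 24.1) for Hoxa4 and 1.87 (1.13 to 3.20) for Hoxa2. Of 5 measured ovary markers 4 were at least 2-fold higher in the oviduct library, with a median of 3.70, against 2, 1, 1 and 1 across the 4 mutant uteri. Cyp11a1, the first enzyme of steroid synthesis, was at 10.82 in the oviduct and 6.34 in the compound Hoxd-null uterus. Amh, a granulosa cell hormone, was at 6.28 and 0.74 in these libraries (both genes singled out after their values were seen). Fshr, of the same list, went the other way, at -0.86 and -0.02. Cyp19a1, the oestrogen-making enzyme, was at the floor of 1 normalised read in all 5 uteri. The part of ovarian RNA in the members' values was not tested.

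In the vas deferens the anterior Hoxa genes were also mostly above WT, in a less uniform order of the libraries. Of the 5 measured members 4 were at least 2-fold higher in the Hoxa-null vas deferens (10.8% of all genes), 2 in Hoxd-null (3.43%), 4 in compound Hoxa-null (14.0%) and 5 in compound Hoxd-null (7.7%), and 0 were 2-fold lower in any of the 4. The members' medians were 1.31, 0.89, 1.78 and 1.66. The 5th percentiles of all measured genes were -1.397, -0.991, -1.361 and -1.035, so at least 5% of them were 2-fold lower in all but the Hoxd-null. The WT vas deferens shared no lane with the mutants, so lane or run and genotype cannot be told apart. The counts of higher members rest on that library. Against the mean of the 3 libraries with an intact copy of the mutated cluster they were 0, 0, 2 and 0 (9.81%, 4.11%, 12.5% and 5.61% of all genes), and Hoxa3, Hoxa4, Hoxa6 and Hoxa7 were lower in the Hoxd-null vas deferens. Against the Hoxd-null vas deferens, which shares lane 2 with both Hoxa-null libraries, the counts were 1 for the Hoxa-null (11.3% of all genes) and 3 for the compound Hoxa-null (13.7%). Hoxa2, measured through the compound Hoxa-null library, is no support for that library being higher, and without it 3 of 4 members were higher there than in WT. With low genes judged by the lowest possible reading of their reads, 3 members were left, Hoxa2, Hoxa3 and Hoxa5. All 3 were 2-fold higher in the Hoxa-null and in both compound libraries. Hoxa2 again passed through the compound Hoxa-null library and is no support there. The share of all genes under this filter was not computed.

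Hoxa4 had the largest difference from WT among the mutants of the male set. It was at 1.79 in Hoxa-null, 0.89 in Hoxd-null, 3.83 in compound Hoxa-null and 2.29 in the compound Hoxd-null vas deferens and at 3.05 in the caudal epididymis. Its reads had 4 possible readings, from 1.5 reads in WT and 17.2 in the compound Hoxa-null vas deferens to 9 and 103. The ratio of the compound Hoxa-null to WT was 14.3, with an interval of 2.53 to 95.2 under the lowest and 7.28 to 32.3 under the highest reading. Neither interval included 1.

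Hoxa2 had 4 reads in WT, 7 in Hoxa-null, 8 in Hoxd-null, 23 in compound Hoxa-null and 10.4 in compound Hoxd-null vas deferens and 10 in the epididymis. The ratios to WT were 2.27 (0.582 to 10.7) and 2.78 (0.744 to 12.6) in the Hoxa-null and Hoxd-null, and 7.16 (2.47 to 28.7) and 4.77 (1.32 to 20) in the compound Hoxa-null and compound Hoxd-null vas deferens. The single mutants thus could not be told from WT at this depth.

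Hoxa3 was at 1.31, 0.15, 1.38 and 1.01 across the 4 mutant vasa deferentia, and its level could not be read back. Hoxa5 was at 1.36, 1.06, 1.78 and 1.66 in that order. It had 12 reads in the WT and 33 in the compound Hoxa-null vas deferens under the lowest of 3 readings and 60 and 165 under the highest. Its ratio of 3.42 between these 2 libraries had an interval of 1.74 to 7.34 under the lowest reading. For both genes WT was the lowest of the 5 vasa deferentia and the compound Hoxa-null the highest.

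The 2 members closest to the mutated block departed from this. Hoxa6 had at most 5.96 reads in WT, 15.8 in Hoxa-null, 7.84 in Hoxd-null, 21.8 in compound Hoxa-null and 3 in compound Hoxd-null vas deferens and 3 in the epididymis, and its differences of 1.78, 0.87, 2.19, -0.12 and -0.06 lie below the minimum level. The last 2 are within 2-fold of WT, and the first was at 0.29 and the second at 0.004 under housekeeping scaling. Hoxa7 was at 0.68, 0.20, 0.66 and 1.24 in the 4 mutants, and the compound Hoxd-null rather than the compound Hoxa-null vas deferens was the highest. The ratio of the compound Hoxd-null to the WT vas deferens was 2.37 for Hoxa7, with an interval of 0.966 to 6.08 under the lowest of 3 readings and 1.52 to 3.67 under the highest.

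WT was the lowest of the 5 vasa deferentia for 5 of 6 members, Hoxa6 excepted (19.8% of all measured genes), and the compound Hoxa-null was the highest for 5 of 6, Hoxa7 excepted (20.2%). Of the latter 5, Hoxa2 passed the minimum through the compound Hoxa-null library and Hoxa6 was below the minimum. Neither is support for that library being the highest. The full falling order seen in the uterus held for Hoxa3 alone, 1 of 6 members (2.95% of all genes). Both Hoxa-null libraries lay at least 2-fold above the 3 others for 0 of 5 measured members (4.07% of all genes), and within lane 2 above the Hoxd-null library for 1 (9.39%). By any amount they did for Hoxa3 and for Hoxa6, which was below the minimum level, 2 of 6 members, against 22.9% of all measured genes. Without the Hoxa-null or the compound Hoxd-null library the 2-fold count was 1 (7.69% and 6.71% of all genes). The compound Hoxa-null exceeded the Hoxa-null vas deferens by at least 2-fold for 2 of 5 members (7.62% of all genes), but Hoxa2 passed the minimum through the former library, and with the minimum doubled the count was 1 of 4, Hoxa4. The ratio was 4.12 for Hoxa4 (1.33 to 16.7 under the lowest reading) and 3.16 (1.31 to 8.71) for Hoxa2. These 2 libraries shared a lane. The compound Hoxd-null exceeded the Hoxd-null vas deferens by at least 2-fold for Hoxa4 and Hoxa7, 2 of 5 members (7.97% of all genes). That pair came from different runs, which cannot be told apart from genotype. Under housekeeping scaling the count was 5. Housekeeping genes stood at -0.41 in the compound Hoxd-null and at 0.15 in the Hoxd-null vas deferens. Scaling by them therefore raises every gene in this comparison. The share of all genes was not computed for that scaling or for the doubled minimum.

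The caudal epididymis, the segment that leads into the vas deferens, had more Hoxa2, Hoxa3, Hoxa4 and Hoxa5 transcript than the WT vas deferens. Of the 5 measured members 4 were at least 2-fold higher in the epididymis (16.3% of all genes), Hoxa4 at 3.05, Hoxa3 at 2.68, Hoxa2 at 2.25 and Hoxa5 at 1.43, and 0 were at least 2-fold lower (12.9%). Hoxa7 was at -0.89, below all 5 vasa deferentia, with at most 11 reads against 38.7 in the WT vas deferens and a ratio of 0.540 (0.250 to 1.08 under the highest reading). Hoxa6 was at -0.06. In the oviduct Hoxa6 and Hoxa7 were at 3.27 and 2.09 against the WT uterus. No test of that difference between the female and the male set was possible.

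**Figure D4:**
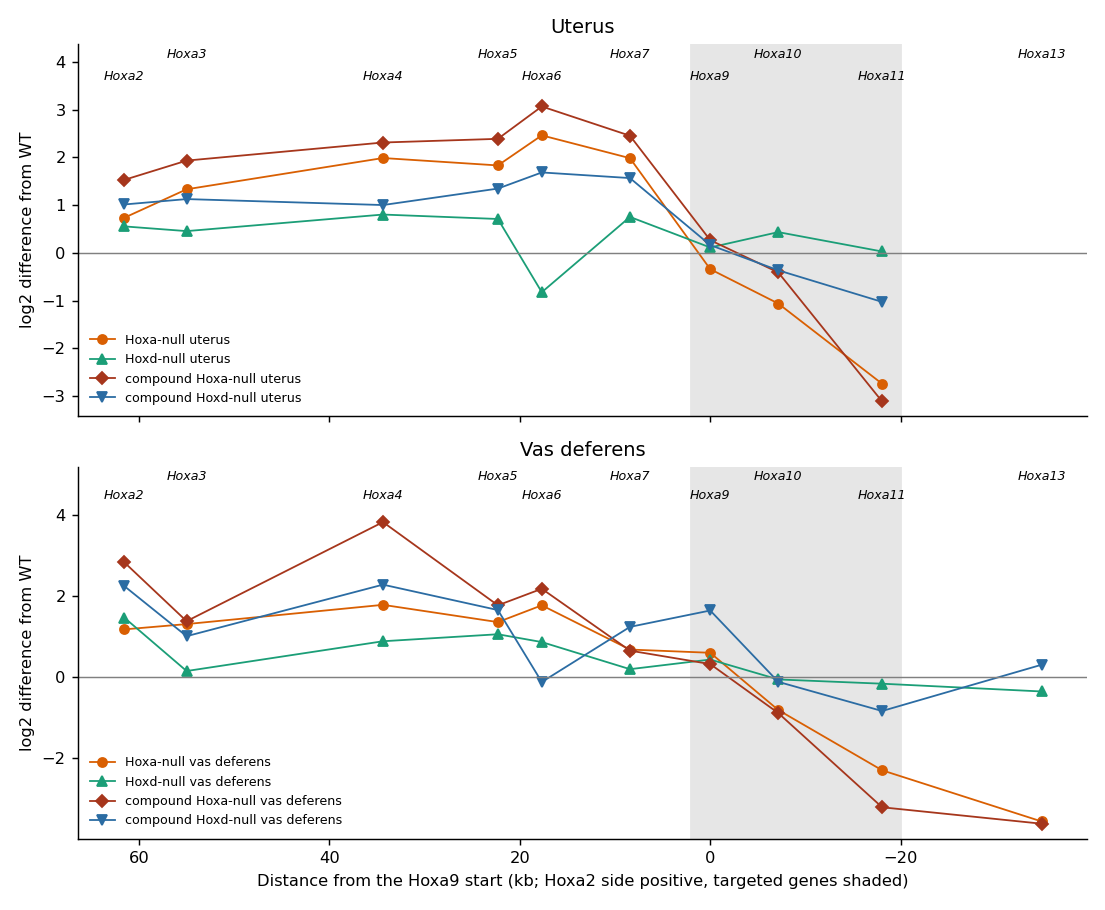
The horizontal axis is the distance in kb between the listed start of each Hoxa gene shown and that of Hoxa9 on build mm9, with the mutated genes shaded. The vertical axis is the log2 difference from WT, 1 line per mutant library. In the uterus panel the Hoxa-null and compound Hoxa-null lines run from 1.99 and 2.46 at Hoxa7 to -2.74 and -3.11 at Hoxa11 (Hoxa13 is left out there because it was below the minimum level).

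Position along the cluster was compared next. On build mm9 the listed starts, the lower coordinate of each gene, run on chromosome 6 from 52112510 for Hoxa2 (Gene ID 15399) through 52119061 for Hoxa3 (15400), 52139686 for Hoxa4 (15401), 52151753 for Hoxa5 (15402) and 52156364 for Hoxa6 (15403) to 52165623 for Hoxa7 (15404), which is 8.43 kb from that of Hoxa9 at 52174053. Hoxa9 stayed within 2-fold of WT in all 4 mutant uteri, from -0.34 to 0.27, next to Hoxa7 at 0.75 to 2.46. In the compound Hoxd-null vas deferens Hoxa9 was at 1.65, beside 1.24 for Hoxa7. Hoxa10 was at -1.06 and -0.41 in the single and compound Hoxa-null uterus. Hoxa13, the gene at the posterior end of the cluster, was at -3.57 and -3.62 in the single and compound Hoxa-null vas deferens, in libraries where Hoxa4 was at 1.79 and 3.83.

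Genes beyond the cluster did not share the pattern as a list. Of the 9 measured genes from Nfe2l3 to Creb5 that neighbour the Hoxa cluster, 0 were at least 2-fold higher in any mutant uterus and 1 was at least 2-fold lower in each, and their medians lay between -0.04 and 0.14. Nfe2l3, a leucine zipper transcription factor gene, was at -1.03 and -1.48 in uterus and 1.68 and 1.69 in vas deferens of the single and compound Hoxa-null genotypes. Creb5, another leucine zipper factor gene, was at -0.60, -1.03, -0.39 and -0.93 across the 4 mutant uteri. Across the 4 mutant vasa deferentia Creb5 was at 1.07, 1.96, 1.42 and 2.21. Of 9 in the vas deferens, 2, 1, 2 and 2 were 2-fold higher and 1, 0, 0 and 0 lower across the 4 mutants. Jazf1, a zinc finger gene, was at -1.04, -0.235, -0.89 and -0.15 across these vasa deferentia and at 0.21, 0.10, -0.55 and -1.89 across the 4 mutant uteri. Tax1bp1, an autophagy adaptor gene, was within 0.35 of WT in both Hoxa-null uteri.

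Some reads of the members can belong to other transcripts. In the GENCODE annotation vM21 of build GRCm38, 25.4% of the exonic bases of Hoxa3, 20.4% of those of Hoxa7 and 16.0% of those of Hoxa4 overlap exons of genes on the opposite strand, among them Hoxaas2 and Hoxaas3. The transcript Gm28308 shares 15.0% of the exonic bases of Hoxa2 and 8.01% of those of Hoxa3 on the same strand, and Hoxa5 and Hoxa6 share none. None of 11 noncoding transcripts of the cluster, Hotairm1, Hoxaas2, Hoxaas3 and Hottip among them, was matched by symbol in the files. Whether counting used strand is not given in the sources used here, so these values may include antisense RNA.

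How closely members followed each other is given as a description. Over the 6 female libraries Pearson's r between 2 members ranged from 0.72 (Hoxa2 with Hoxa4 and with Hoxa6) to 0.99 (Hoxa3 with Hoxa7), with a median of 0.90 over 15 pairs. Over the 6 male libraries it ranged from -0.38 (Hoxa3 with Hoxa7) to 0.93 (Hoxa2 with Hoxa4 and with Hoxa5), with a median of 0.38. These are descriptions over 6 libraries each, which share scaling and depth, with no test of the difference between the sets. Hoxa6, with at most 21.8 reads in a male library, was part of 5 of the 15 male pairs.

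Paralogues of the members in other clusters, which arose by duplication and keep related homeodomains, split by cluster. All 11 paralogues of groups 2 to 7 were measured in both sets. At 2-fold or more above WT were 3 in Hoxa-null, 1 in Hoxd-null, 3 in compound Hoxa-null and 2 in compound Hoxd-null uterus, and 0, 3, 0 and 0 were 2-fold lower. The higher genes were those of the Hoxc cluster. Hoxc5 was at 2.93, 0.96, 3.37 and 2.33, Hoxc4 at 2.55, 1.11, 2.99 and 1.84 and Hoxc6 at 1.57, -0.26, 1.91 and 0.54. Hoxb2 to Hoxb7 and Hoxd3 and Hoxd4, in contrast, were between -0.83 and 0.17 in both Hoxa-null uteri. In the vas deferens 0, 1, 1 and 3 of the 11 were 2-fold higher, with Hoxc5 at 0.79, 1.14, 1.49 and 1.61, Hoxd4 at 0.84 and 0.90 in the single and compound Hoxa-null, and Hoxb4 at 0.72 and 0.88.

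Lists of known partners and regulators (cofactors, retinoic acid pathway, Polycomb and Trithorax groups) had medians between -0.38 and 0.11 in the mutant uteri and between -0.05 and 0.34 in the mutant vasa deferentia. Of 9 measured cofactor genes (Pbx, Meis and Pknox, homeodomain partners of Hox proteins) 0 were at least 2-fold higher in any mutant uterus, and 1, Pbx4, was 2-fold lower in the Hoxa-null, at -1.19. Meis3 was at -0.89 and -0.97 and Meis1 at 0.44 and 0.89 in the single and compound Hoxa-null uterus. In the vas deferens 0, 0, 1 and 0 of 9 were 2-fold higher and 1, 0, 0 and 0 lower across the 4 mutants. The highest value, 1.68 in the compound Hoxa-null, belonged to a cofactor gene not named here. In the single and compound Hoxa-null vas deferens Meis1 was at -1.14 and -0.96, Meis2 at -0.87 and -0.77 and Pknox2 at 0.78 and 0.91. Of 16 measured genes of the retinoic acid pathway 2, 1, 1 and 1 were 2-fold higher and 3, 1, 4 and 1 lower across the 4 mutant uteri. Crabp2, a retinoic acid carrier, was at 3.31, 0.95, 2.80 and 1.08. Cyp26a1, which degrades retinoic acid, was at -3.14, -3.26, -3.64 and -4.03, and Stra6, a retinol transporter, at -2.76, -0.06, -1.63 and 0.24. In the vas deferens 3, 1, 4 and 0 of 14 were higher and 0, 2, 0 and 0 lower, with Cyp26b1 at 1.71, 1.02, 1.80 and 0.94, Crabp2 at 1.47, -0.29, 1.65 and 0.72 and Aldh1a1, a retinaldehyde dehydrogenase, at 1.22, 0.69, 1.29 and 0.41.

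Of 18 measured Polycomb group genes, whose products keep Hox genes silent, 1 was at least 2-fold higher in a mutant uterus, Jarid2 at 1.42 in Hoxd-null, and 0 were 2-fold lower. Ezh2, the H3K27 methyltransferase, was at -0.22 and -0.91 in the single and compound Hoxa-null uterus. Of 19 measured in the male set, 1 was 2-fold higher in the single and 3 in compound Hoxa-null vas deferens, where Cbx2 was at 1.20 and 1.41, Jarid2 at 0.87 and 1.15 and Phc3 at 0.59 and 1.01. Of 10 Trithorax group and H3K27 demethylase genes, which keep Hox genes active, 0 differed by 2-fold in any uterus, with Kdm6b at -0.45 and -0.17 and Mll2 at -0.22 and -0.37 in the single and compound Hoxa-null. The single and compound Hoxd-null vas deferens each had 2 genes 2-fold higher, where Mll3 was at 1.22 and 1.07 and Mll1 at 1.21 and 1.0.

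The genes whose pattern was most like the mean of the members were sought over all 12 libraries, each sex centred, among 1401 named genes that were measured and spanned at least 4-fold in both sets. The highest Pearson's r was 0.91, for Hoxc9, followed by Adcy8 (an adenylate cyclase) and Hoxc8 at 0.90, Krt36 (a hair-type keratin) at 0.89, Asb11 (a ubiquitin ligase adaptor), Opcml (a neural cell adhesion protein) and Adh7 (an alcohol dehydrogenase that can oxidise retinol) at 0.85 and Klk1b5 (a kallikrein) at 0.84. Hoxc9 was at 4.16, 1.68, 4.98 and 3.37 across the 4 mutant uteri and at 1.72, 1.003, 1.88 and 2.35 in the vas deferens. Hoxc8 was at 2.62, -0.65, 3.30 and 1.40, and at 1.27, 0.40, 1.89 and 2.04. Among the members themselves r with their own mean ran from 0.72 for Hoxa7 to 0.97 for Hoxa5. That mean contains each member, also Hoxa6 in the male set where it was below the minimum level. Their r is raised by this and cannot be set against that of genes outside the mean. Hoxa9 was at an r of -0.14, Hoxa10 at -0.65 and Hoxa11 at -0.88. These are descriptions over 12 libraries that share scaling within each sex.

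Markers of some cell types moved alongside the members. Of 6 mesothelium markers, genes of the outer lining of the organs, 3 were 2-fold or more above WT in the Hoxa-null uterus, 0 in Hoxd-null, 4 in compound Hoxa-null, 2 in compound Hoxd-null and 5 in the oviduct, with medians of 1.17, -0.08, 1.37, 0.60 and 2.51. Lrrn4 was at 1.93, 0.71, 2.97, 1.62 and 3.40 in these libraries and Upk3b at 1.53, 0.20, 2.22, 1.14 and 2.49, while Wt1 was at -0.57, -0.24, -0.28, -0.18 and 0.46. These 3 markers were singled out after their values were seen. None of the 6 was at the floor of 1 normalised read in any library. In the vas deferens the same markers had medians of -1.11, -0.25, -1.76 and -0.26 in the mutants and -1.20 in the epididymis, where the members stood above WT at their medians. Adipocyte markers were higher in 3 of the 4 mutant vasa deferentia, 6 of 6 at least 2-fold in each, against 1 in the Hoxd-null, with medians of 2.26, 0.27, 2.73 and 2.36 across the 4 libraries, but had a median of -1.33 in the epididymis and medians between -3.72 and -0.15 in the mutant uteri. Stratified squamous epithelium markers had 9, 2, 9 and 9 of 10 genes at least 2-fold higher and 0, 2, 0 and 0 lower across the 4 mutant uteri, with medians of 5.94, -0.01, 3.83 and 1.71 and a median of 0.93 in the oviduct. Stromal fibroblast markers had 4, 4, 6 and 0 of 10 genes at least 2-fold higher and medians of 0.68, 0.84, 1.09 and 0.40 across the 4 mutant uteri, and a median of -0.91 in the oviduct. Smooth muscle markers had medians of 0.12, 0.12, 0.66 and -0.28 in the mutant uteri, with 3 of 10 at least 2-fold higher in the compound Hoxa-null, and of -1.04, 0.17, -1.32 and -0.26 in the mutant vasa deferentia. Seminal vesicle markers had 4, 0, 3 and 0 of 5 measured genes at least 2-fold higher and medians of 2.85, -0.38, 2.52 and -0.39 in the mutant vasa deferentia. The part of these cell types in the members' differences was not tested, and in pooled tissue a change in the number of cells that make a transcript and a change in transcript per cell cannot be told apart.

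**Figure D5:**
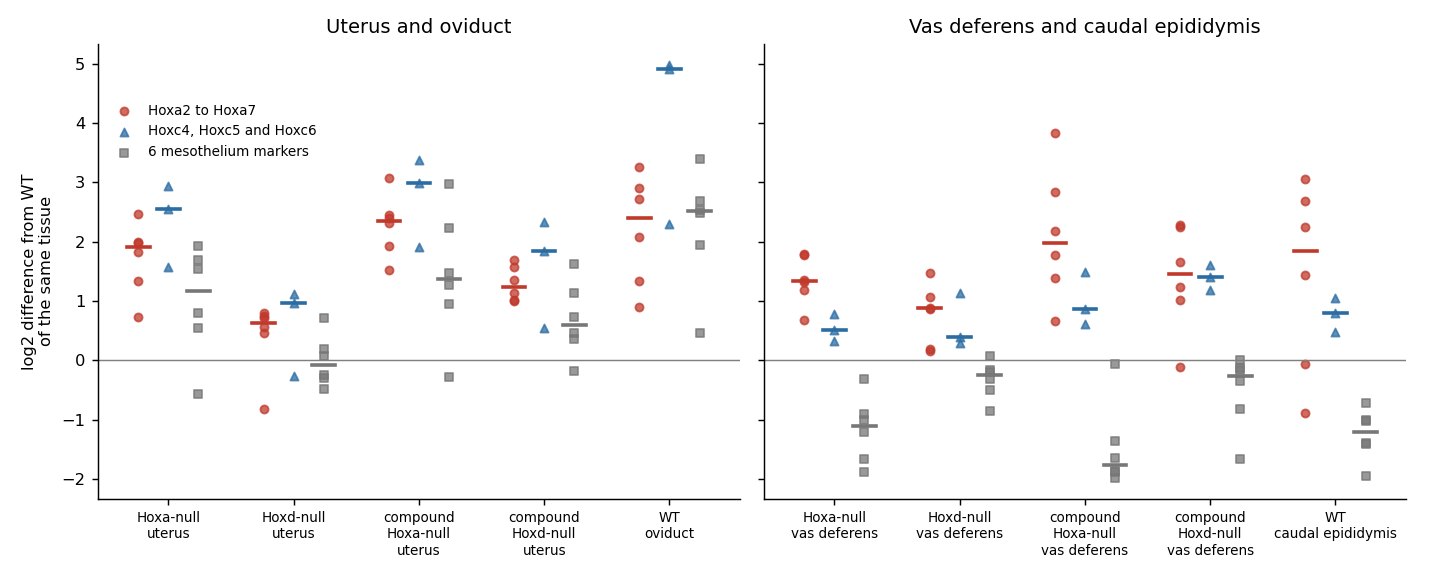
Points are genes (Hoxa2 to Hoxa7, Hoxc4 to Hoxc6 and the 6 mesothelium markers), short lines the median of each set, Hoxa6 included in both panels, and the vertical axis is the log2 difference from WT in the same tissue. The mesothelium markers have their medians above 0 in 4 of the 5 left columns and below 0 in all 5 right columns, and the members' medians are above 0 in all 10.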

How the data were processed

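RNA was sequenced from 12 libraries, 1 per tissue and genotype, each a pool of 3 animals. Per the labels' protocols, libraries were prepared by Illumina TruSeq from RNA extracted on Qiagen RNeasy Mini columns. Per the submitters' processing notes, reads were handled with TopHat on build mm9. Counting tool, annotation, strand setting and scaling were not given in the sources used here. The deposited files hold log2 values per gene, centred by the authors on the median of the 6 libraries of each sex, as tested on the files. Levels, and differences between the sexes or between genes, are lost by that centring, and a floor of 1 normalised read sets the lowest values.

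Differences from WT were taken after each library's median over measured genes was set to 0, a shift of at most 0.0018 (female) and 0.007 (male). Reads were recovered from the spacing of low values, which were whole reads, to a relative error of about 3e-06, for 67.961% of female and 63.841% of male values, and whole reads or multiples of 1 in 50 of a read for 84.923% and 82.077%. Several readings of a gene were kept where its values did not single out 1. This reading and the minimum of 20 normalised reads were set after the values had been seen. Intervals of ratios are exact 95% intervals for counting error, from the binomial split of the reads of 2 libraries, rounded to whole reads. Counts are of members at least 2-fold apart, beside the percentage of all measured genes, with no p-value since n = 1. The alternatives were no or housekeeping scaling, no or a doubled minimum, 1.5-fold and 4-fold limits, another reference, libraries of 1 lane and leaving out each library. Also tried were a minimum judged by the lowest reading and the Hoxd-null reference of the same lane, both chosen after seeing the data. The members and gene lists were chosen with earlier results of these data known. Named genes were all members, Hoxa9, up to 3 per list with the largest mean difference of the Hoxa-null libraries, and the 8 most alike in pattern, and some genes that this rule names are not reported here. Hoxd11, as a mutated gene, and Wt1 and Cyp19a1, after their values were seen, were named outside this rule. The method was tested on simulated data, which held whole reads only, so recovery of fractions of a read was not tested. The outcome of that simulation is not reported here. Python 3.11.15, pandas 2.3.3, numpy 2.4.6, scipy 1.17.1 and matplotlib 3.10.9 were used.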

Additional observations from a re-analysis of the deposited data

Results flagged for a closer look

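Hoxa6 differed in sign between the sexes under the same comparison. In the Hoxd-null animals it was at -0.823 in the uterus and at 0.868 in the vas deferens, relative to WT on the log2 scale. In the compound Hoxd-null animals it was at 1.686 in the uterus and at -0.119 in the vas deferens. With 1 library per group the difference was not tested. These values rest on 2 to 14.9 reads in the uteri and at most 7.84 reads in the vasa deferentia, where Hoxa6 was below the minimum level, and the last value was 0.29 when libraries were scaled by housekeeping genes.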

How the results depend on the processing

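No paired analysis was possible because each group has 1 library and the groups share fewer than 2 replicate numbers. Without the shift of library medians, or without the minimum level, all 16 counts of members stayed within 1.5 times their value. Housekeeping genes stood between -0.36 (oviduct) and 0.24 of WT in the female and between -0.41 (compound Hoxd-null) and 0.22 in the male set. Scaling by them gave 3 members higher in the compound Hoxd-null uterus, 1 with both Hoxa-null uteri above the others, 1 higher in the Hoxd-null vas deferens and 5 higher in the compound Hoxd-null than the Hoxd-null vas deferens. At 4-fold the counts were 1 in the Hoxa-null uterus, 0 in the compound Hoxd-null uterus, 0, 0, 2 and 2 across the 4 mutant vasa deferentia, and 1 and 0 for the compound against the single Hoxa-null and Hoxd-null vas deferens. At 1.5-fold they were 3 in the Hoxd-null uterus, 2 for both Hoxa-null uteri above the others, 3 and 4 for the compound against the single Hoxa-null and Hoxd-null uterus and 5 for the compound against the single Hoxd-null vas deferens. With the minimum doubled, 1 member was higher in the Hoxd-null vas deferens and 1 in the compound than the single Hoxa-null vas deferens. With the lowest reading, 3 of 3 measured members were higher in the compound Hoxd-null vas deferens, and 1 and 0 in the compound than the single Hoxa-null and Hoxd-null vas deferens. That 1 member was Hoxa2, which passed the minimum through the compound Hoxa-null library and is no support for it being higher. The share of all genes was not computed for other scaling, other fold limits or other minimum levels. A lower fold limit can only raise the count of any set of genes. The counts under these settings therefore show how the main counts depend on processing and are not results about the members. Against the mean of the 3 libraries with an intact copy, 0 were higher in the compound Hoxd-null uterus and 0, 0, 2 and 0 in the 4 mutant vasa deferentia. Under that reference 13 single differences changed sign: Hoxa2 in the Hoxa-null vas deferens to -0.061, Hoxa4, Hoxa5 and Hoxa6 in the compound Hoxd-null uterus to -0.431, -0.06 and -0.157, 5 in the Hoxd-null uterus and 4 in the Hoxd-null vas deferens. Under housekeeping scaling 2 did, both of Hoxa6. Against the Hoxd-null library of its lane, the Hoxa-null vas deferens had 1. Leaving out 1 library gave 0 to 4 members with the Hoxa-null uteri above the others (3 when the Hoxa-null, 4 when the compound Hoxd-null library was left out) and 0 to 1 in the vas deferens. Within single lanes the counts were 5 (Hoxa-null against WT) and 3 (compound Hoxa-null against both Hoxd-null) in the uterus and 1 in the vas deferens, and where 2 groups shared no lane that alternative was not run. These changes follow from the fold limit, the genes counted or the libraries used, and the cause of those under other scaling or reference was not tested. Depth limits the members with few reads: the WT uterus had 5 for Hoxa4 and 3.86 for Hoxa6, and the WT vas deferens 4 for Hoxa2.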
